A study of Sus scrofa with 2 samples.

Results

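In backfat, a subcutaneous fat depot of the pig, 103 genes had transcript isoforms that differed in opposite directions between castrated and intact males. They were chosen from the authors' table of called mRNA isoforms as gene identifiers with 2 or more listed isoforms, at least 1 higher and at least 1 lower in the castrated group. The table listed 2645 isoforms of 2266 gene identifiers, of which 292 had 2 or more isoforms and 110 (37.7%) had isoforms on both sides. Of these 110, 7 were left out by name, so the 103 genes with their 236 isoforms remained. The direction of change chose the genes, so the opposite directions themselves are a description and carry no test.

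The castrated and the intact group were each made of 3 male pigs of the Huainan breed aged 300 days and on a standard diet. Each group was represented by 1 sample and 1 FPKM value per isoform (fragments per kilobase of transcript and per total of mapped fragments, scaled by the authors), so the spread between animals is unknown. The sources used here do not state how the 3 pigs became 1 value, how reads shared by several isoforms were divided, or how deep the libraries were. Every q-value in the authors' deposited table lay under 0.05, so an isoform that is missing from it is not known to be unchanged. With 1 sample per group, these q-values are not read here as a measure of the spread between animals.

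A gene can give rise to several mRNA isoforms, through alternative promoters, alternative splicing of exons or alternative ends of the transcript. Isoforms can encode different proteins, or the same protein with other untranslated regions that change its stability or translation. Adipocytes are known to change isoform use during differentiation and with insulin and nutrient signals. A sum over a gene can hide such changes, since a rise in one isoform offsets a fall in another.

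Among the 103 genes, 117 isoforms had the higher value in the castrated group and 119 the lower, and these are called raised and lowered isoforms here. A size rule counted an isoform if log2(FPKM + 1) differed by 1 or more and the higher of its values reached 1 FPKM. This is a 2-fold difference of FPKM + 1, so at low levels a larger fold of FPKM itself can fail. The 2930-base isoform of MBD1, for example, was 6.01-fold lower, at 0.205 against 1.23 FPKM, and did not pass. A gene that did not pass can thus hold differences of more than 2-fold in FPKM. It was passed by 88 raised and 90 lowered isoforms of the 236. Of all 2645 listed isoforms 42.6% passed it upwards and 39.9% downwards, 82.5% in all. After centring the values on the median log2 ratio of all listed isoforms that reached 1 FPKM in each group (1.26), 20 raised and 96 lowered isoforms passed. Because uncalled isoforms are missing from the table, this median does not measure a difference in scale.

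The rule was passed in both directions by 65 of the 103 genes, upwards only by 16, downwards only by 14 and in neither direction by 8. Among the 292 genes with 2 or more isoforms 23.6% passed in both directions, and since direction chose the 103 genes nothing is read from that difference. With the centring above 18 genes passed in both directions, and with a pseudocount of 5 FPKM the count was 2, namely SP100 and SHC1. The smallest fold difference among isoforms measured above 0 in both groups was 2.34, for the raised isoform of RORA, and no listed isoform of these genes lay nearer to equal values. That isoform alone among the raised isoforms turned to the lower side after the centring.

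Most of these isoforms were low. The highest isoform of a gene had a median of 3.74 FPKM, against 5.86 FPKM over all 2266 listed genes. Of the 103 genes, 60 had no isoform of 5 FPKM or more in either group. A value of 0 in 1 of the groups was listed for 105 isoforms (44.5%), against 20.7% of all 2645 listed isoforms. Of these 105, 57 were raised ones at 0 in the intact group and 48 lowered ones at 0 in the castrated group. A listed 0 can be a failed estimate, so no fold is given against a 0. Of the 65 genes that passed in both directions, 25 had no isoform at 0.

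**Figure D1:**
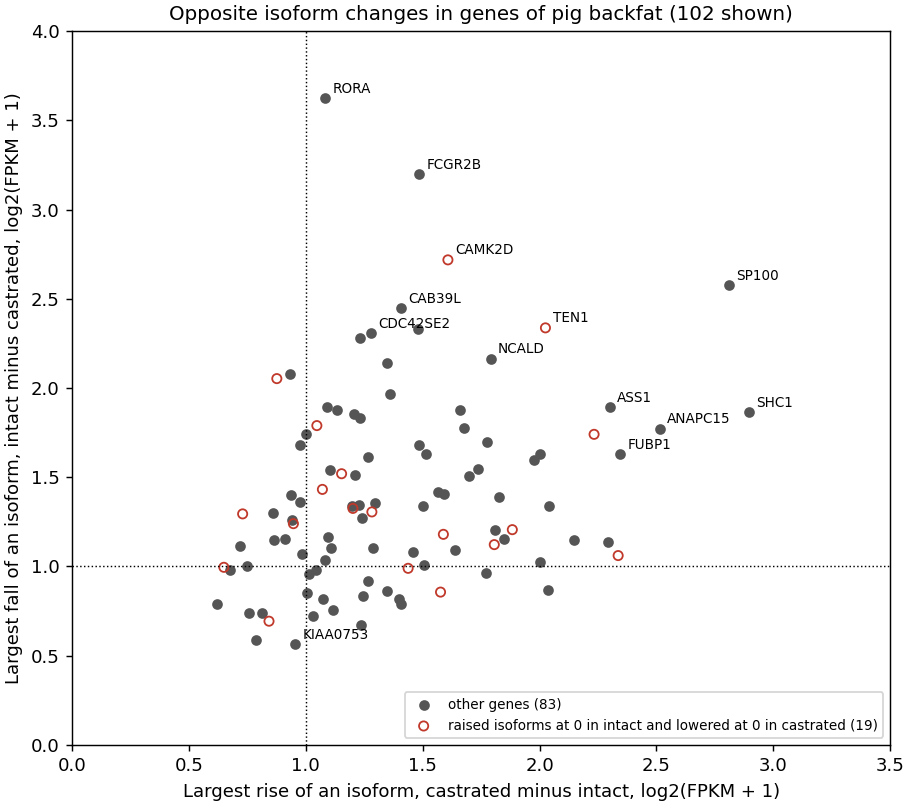
Largest rise (horizontal axis) and largest fall (vertical axis) of an isoform within each gene, on the log2(FPKM + 1) scale. Dotted lines mark the size rule. One member is not shown. Open circles mark the genes whose raised isoforms were all at 0 in the intact group and whose lowered isoforms were all at 0 in the castrated group. SP100 lies far out on both axes, with log2 changes of 2.81 and -2.58, while RORA stands apart through its fall.

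The largest change on both sides at once, 2.58 for the smaller of the opposite log2 changes, was that of SP100 (gene ID 100516940), which encodes a protein of nuclear PML bodies that is induced by interferon. Its 1867-base isoform stood at 7.11 FPKM in castrated and 0.154 FPKM in intact backfat, 46.1-fold higher. Its 2017-base isoform stood at 0.181 FPKM in castrated and 6.05 FPKM in intact backfat, 33.4-fold lower. Each group thus had 1 main isoform with 97.5% of the listed FPKM of the gene, and it was another isoform in each group. The sums, 7.29 and 6.21 FPKM, differed by 0.20 on the log2 scale. In the authors' deposited table the q-values of these isoforms were 3.90e-06 and 1.75e-06.

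ASS1 (gene ID 414411), the argininosuccinate synthase of arginine synthesis, showed a similar exchange. The 1523-base isoform was at 5.29 FPKM in castrated and 0.276 FPKM in intact backfat, while the 1676-base isoform was at 0.320 and 3.90 FPKM. The shorter isoform held 94.3% of the listed FPKM in the castrated group and 6.60% in the intact group. Its log2 change was 2.30, against -1.89 for the longer isoform.

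SHC1 (gene ID 100156321) encodes an adaptor that links insulin and growth factor receptors to Ras. In mammals its isoforms differ in length at the amino terminus, and the longest protein is linked to oxidative stress. The 3219-base transcript was at 8.89 FPKM in castrated and 0.331 FPKM in intact backfat, 26.9-fold higher, with the lowest q-value of the 236 isoforms in the authors' deposited table (1.27e-08). The 3661-base transcript was at 4.31 and 18.3 FPKM, 4.25-fold lower. The longer transcript made up 98.2% of the listed level in intact and 32.6% in castrated backfat. Which protein each transcript encodes is not given in the files.

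TEN1, ANAPC15 and FUBP1 were also among the 20 named genes with the largest changes on both sides. TEN1, a subunit of the telomere-capping CST complex, had a 746-base isoform at 3.07 FPKM in the castrated group and 0 in the intact group, and a 717-base isoform at 0 and 4.05 FPKM. ANAPC15, a subunit of the anaphase-promoting complex, had a 752-base isoform at 4.72 and 0 FPKM and a 732-base isoform at 1.40 and 7.20 FPKM. FUBP1, a single-strand DNA-binding protein that activates MYC in human cells, had a 3926-base isoform at 4.15 and 0.0140 FPKM and a 4046-base isoform at 1.72 and 7.40 FPKM. In these 3 genes the isoform with the highest level differed between the groups, and their sums lay within 0.5 of each other on the log2 scale.

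**Figure D2:**
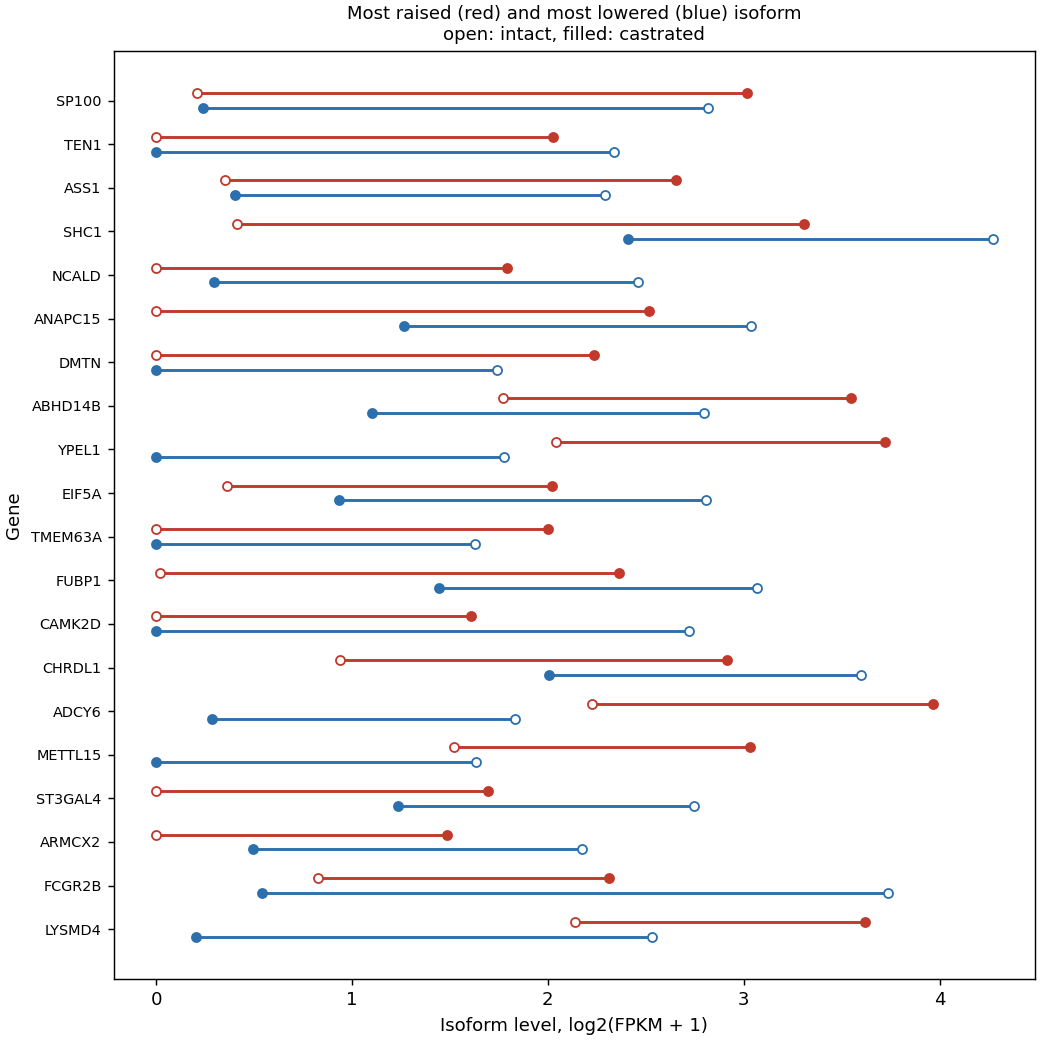
Level of the most raised (red) and most lowered (blue) isoform, as log2(FPKM + 1) on the horizontal axis, for the 20 named genes with the largest changes on both sides. Open points are the intact and filled points the castrated group, 1 value each. For SP100 the pair of lines nearly mirror each other. The most raised isoforms of ABHD14B, YPEL1, ADCY6, METTL15 and LYSMD4 already stood above 1 FPKM in the intact group.

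Signalling genes among those named included kinases, adaptors and channel subunits. CAMK2D (gene ID 397674), a calcium/calmodulin-dependent kinase whose transcripts are known for extensive alternative splicing, had a 4036-base isoform at 0 FPKM in castrated and 5.58 FPKM in intact backfat. Its 4233-base isoform was at 0 and 0.706 FPKM, and its 4078-base isoform was at 2.05 FPKM in the castrated and 0 in the intact group. No listed isoform of CAMK2D was therefore above 0 in both groups, and its sum had a log2 change of -1.26.

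PIK3R3, a regulatory subunit of PI3-kinase, was of the same kind. The 4304-base isoform was at 2.69 FPKM in the castrated and 0 in the intact group, and the 4133- and 4167-base isoforms were at 0 in the castrated and at 1.31 and 1.22 FPKM in the intact group. The sums over the listed isoforms were 2.69 and 2.53 FPKM, nearly equal, and after the centring the sum had a log2 change of -0.73.

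ADCY6, an adenylyl cyclase that makes cAMP, the signal that drives lipolysis, had a 3854-base isoform at 14.6 and 3.68 FPKM in the castrated and intact groups, 3.97-fold higher. Its 4091-base isoform was at 0.218 and 2.56 FPKM, 11.7-fold lower. The shorter isoform led in both groups, with 98.5% and 59.0% of the listed level. The sum was higher by 1.13 on the log2 scale, and after the centring it was at -0.01.

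CAB39L, a relative of the scaffold protein that activates the kinase LKB1, had a 2633-base isoform at 11.5 and 3.72 FPKM and a 2576-base isoform at 0 and 4.45 FPKM. NCALD, a neuronal calcium sensor gene, had a 3482-base isoform 19.6-fold lower, at 0.230 and 4.51 FPKM, and a 3514-base isoform at 2.46 and 0 FPKM. Both genes had another leading isoform in each group. CACNA2D1, an accessory subunit of calcium channels, differed in that its 7635-base isoform led in both groups. That isoform stood at 2.80 FPKM in castrated and 15.7 FPKM in intact backfat, while the 7641-base isoform was at 1.54 and 0 FPKM.

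Negative regulators of secreted growth signals were also members. CHRDL1, a secreted antagonist of bone morphogenetic proteins, had a 3761-base isoform at 6.54 and 0.919 FPKM in the castrated and intact groups, 7.11-fold higher, and a 3883-base isoform at 3.01 and 11.1 FPKM, 3.69-fold lower. LDLRAD4, an inhibitor of TGF-beta signalling, had raised isoforms of 2126 and 2218 bases at 3.12 and 0.879 FPKM against 0, and a 1640-base isoform at 1.72 against 5.88 FPKM. The raised isoforms of LDLRAD4 thus held 69.9% of its listed level in the castrated group and 0% in the intact group, with sums of 5.72 and 5.88 FPKM. CDK20, a cyclin-dependent kinase, had a 2327-base isoform at 2.12 against 0 FPKM and a 2382-base isoform at 0.775 against 2.79 FPKM.

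Nuclear receptors and transcription regulators made up a further group. RORA (gene ID 100156637), a nuclear receptor of the circadian clock and of lipid metabolism, had the largest fall of all 236 isoforms. Its 6425-base isoform was at 0.00709 FPKM in castrated and 11.4 FPKM in intact backfat, with a log2 change of -3.62. Its 6508-base isoform was at 11.8 and 5.03 FPKM, with a log2 change of 1.08 that was -0.03 after the centring. The longer isoform held 99.9% of the listed level in castrated and 30.6% in intact backfat. NCOA7, a coactivator of nuclear receptors, had a 5634-base isoform at 1.14 against 0 FPKM and a 5886-base isoform at 0.844 against 3.13 FPKM.

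TCF7L2, the Wnt-responsive transcription factor whose gene carries risk for type 2 diabetes in humans, had 3 listed isoforms. A 4042-base isoform was at 2.50 FPKM in the castrated and 0 in the intact group, and another isoform of the same length was at 0 and 1.18 FPKM. The 4093-base isoform was at 0 and 0.892 FPKM. Isoforms of equal length and opposite change were listed for TCF7L2 alone among the 103 genes.

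Genes of chromatin and the cell cycle had raised and lowered isoforms at a few FPKM. MBD1, a reader of methylated DNA, had a 3020-base isoform at 2.60 against 0 FPKM, while its 2930- and 3172-base isoforms were at 0.205 against 1.23 FPKM and at 0.370 against 2.04 FPKM. PHF17, which RefSeq names JADE1 and which acts in histone acetyltransferase complexes, had isoforms of 5580 and 5589 bases at 1.43 against 0 FPKM and at 0 against 1.47 FPKM. The sums of both genes differed by under 0.1 on the log2 scale. DMTF1, a transcription factor of the cell cycle, had raised isoforms of 3780 bases, at 3.34 against 0.0830 FPKM, and 3754 bases, at 1.96 against 0.418 FPKM, and a 3657-base isoform at 0.254 against 1.56 FPKM. PCGF5, a Polycomb component named after its values were seen, had the highest lowered isoform of the chromatin genes described here, at 1.53 against 8.28 FPKM, with a raised one at 9.91 against 3.98 FPKM.

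A few genes of lipid and sterol control, metabolism and secretion were members. The choosing rule left out some lipid genes by name, so the members give no measure of how many lipid genes had isoforms on both sides. SCAP (gene ID 494015), which carries the sterol-sensing transcription factors SREBP from the endoplasmic reticulum to the Golgi, was named after its values were seen. Its 4288-base isoform was at 11.2 FPKM in castrated and 4.20 FPKM in intact backfat, 2.67-fold higher, and its 4292-base isoform was at 0.711 and 5.08 FPKM, 7.15-fold lower. These transcripts differ by 4 bases in length. The shorter one held 94.0% of the listed level in castrated and 45.2% in intact backfat, and the sums were 11.9 and 9.28 FPKM.

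SEC24A, a subunit of the COPII coat that exports cargo such as SCAP-bound SREBP from the endoplasmic reticulum, had a 3943-base isoform at 0 against 3.85 FPKM. Its 6165- and 6375-base isoforms were at 5.49 against 1.76 FPKM and at 1.95 against 0.563 FPKM. The long isoforms were thus higher and the short one lower in the castrated group. GBF1, an activator of Arf GTPases at the Golgi and named after its values were seen, had a 6607-base isoform at 0.102 against 3.31 FPKM, 32.5-fold lower, and a 6654-base isoform at 1.57 against 0 FPKM.

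Sialyltransferases, which add sialic acid to glycoproteins and glycolipids, were represented by ST6GALNAC6 and ST3GAL4. ST6GALNAC6 had 4 listed isoforms. The leading one, of 2406 bases, was at 24.6 FPKM in castrated and 10.1 FPKM in intact backfat, and the 2299-base isoform was at 1.58 and 0.300 FPKM. The 2931-base isoform was at 0.859 and 4.63 FPKM and the 2325-base isoform at 0 and 2.62 FPKM. ST3GAL4 had a 1715-base isoform at 2.24 against 0 FPKM and a 1784-base isoform at 1.36 against 5.70 FPKM. The lowered isoforms of both genes thus included the longest one listed.

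Other enzymes followed. ABHD14B, a hydrolase of the alpha/beta family, had isoforms of 1712 and 1721 bases at 10.7 against 2.42 FPKM and at 1.15 against 5.96 FPKM. METTL15, a mitochondrial ribosomal RNA methyltransferase, had a 4087-base isoform at 7.19 against 1.87 FPKM and a 4144-base isoform at 0 against 2.10 FPKM. Phosphorylase kinase subunit PHKG1, which the table labels PHGK and which acts in glycogen breakdown, was at 3.23 against 0.756 FPKM for its 1834-base and 1.69 against 7.21 FPKM for its 1866-base isoform, and it was named after its values were seen. In all 3 genes the shorter isoform was the raised one.

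Cytoskeletal genes included one whose raised and lowered transcripts differed clearly in length. EPB41L2, which links membrane proteins to the spectrin and actin skeleton, had a 3278-base isoform at 5.58 FPKM in castrated and 0.856 FPKM in intact backfat, 6.52-fold higher. Its 4057-base isoform was at 4.55 and 13.5 FPKM, 2.97-fold lower. FLNC, a filamin of muscle cells, had isoforms of 9140 and 9221 bases at 0.00465 against 1.47 FPKM and at 0.386 against 2.24 FPKM, and a 9284-base isoform at 0.817 against 0 FPKM. Its sum was lower, with a log2 change of -1.09. In the list of 10 smooth muscle and pericyte markers 3 of 5 listed genes were lower and 2 higher. The lower ones were MYH11 at 10.8 against 32.0, CNN1 at 3.89 against 15.1 and DES at 3.93 against 12.9 FPKM. RGS5, at 130 against 46.5 FPKM, and MCAM, at 13.7 against 4.24 FPKM, were higher. RGS5 thus made most of the summed 162 FPKM in castrated backfat, against a summed 111 FPKM in intact backfat. Of all 1940 listed gene symbols, 40.7% passed the size rule upwards and 37.8% downwards. TCAP, the single listed skeletal muscle marker of 10, was at 1.32 against 4.76 FPKM. The part of other cell types in the values of FLNC was not tested.

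DMTN, which encodes the actin-bundling protein dematin of the red cell membrane, had a 2547-base isoform at 3.70 against 0 FPKM and a 2623-base isoform at 0 against 2.34 FPKM. Erythroid markers were higher in the castrated group for all 3 listed genes of 8, with a summed level of 1394 against 132 FPKM. Nearly all of this was HBB, at 1383 against 130 FPKM. Of all 1940 listed gene symbols, 40.7% passed the size rule upwards. The part of blood in the values of DMTN was not tested. SH3D19, an adaptor that binds ADAM proteases, had a leading 4950-base isoform at 4.55 against 13.3 FPKM, a 5084-base isoform at 0 against 1.05 FPKM and a 5239-base isoform at 2.61 against 0.833 FPKM. CDC42SE2, an effector of the GTPase CDC42, had a 3384-base isoform at 0.216 against 5.01 FPKM, 23.2-fold lower, and isoforms of 3675 and 3748 bases at 1.68 against 0.102 FPKM and 0.869 against 0 FPKM.

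LOXL4, a lysyl oxidase that crosslinks collagen, had a 3570-base isoform at 1.09 FPKM in castrated and 7.82 FPKM in intact backfat, 7.20-fold lower. Its 3580-base isoform was at 0.906 against 0 FPKM and stayed below the size rule. The sum was among the lowest of the 103 genes, with a log2 change of -1.56. In the list of 12 fibroblast and progenitor markers all 5 listed genes were lower too, at a summed 1720 against 16294 FPKM. Of all 1940 listed gene symbols, 37.8% passed the size rule downwards. Fewer cells of a type and less RNA per cell cannot be told apart in such bulk samples.

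Receptors of the immune system included FCGR2B and IL13RA2. FCGR2B (gene ID 613131), the inhibitory Fc receptor of B cells and macrophages, had a 1373-base isoform at 0.453 FPKM in castrated and 12.3 FPKM in intact backfat, 27.2-fold lower. The 1547-base isoform was at 0.274 and 4.07 FPKM, and the 1490-base isoform was at 3.97 and 0.775 FPKM. The raised isoform held 84.5% of the listed level in the castrated and 4.52% in the intact group. The sum had the largest fall of the 103 genes, a log2 change of -1.67. Fc receptors have near-identical relatives, so how reads were divided among them is uncertain.

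IL13RA2, a decoy receptor of interleukin 13, had isoforms of 1448 and 1402 bases at 3.11 against 9.41 FPKM and at 1.22 against 4.41 FPKM, and a 1313-base isoform at 1.30 against 0 FPKM. Macrophage markers were higher in the castrated group for both listed genes of 15, at a summed 190 against 11.4 FPKM. Most of this was SPP1, at 154 against 7.64 FPKM, and the other gene was LYZ, at 36.4 against 3.75 FPKM. All 3 listed T and NK lymphocyte markers of 12 were higher, at a summed 16.3 against 4.39 FPKM. None of 5 B cell markers was listed. Of all 1940 listed gene symbols, 40.7% passed the size rule upwards. The sums of FCGR2B and IL13RA2 had log2 changes of -1.67 and -1.16. The part of immune cells in the values of FCGR2B and IL13RA2 was not tested.

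Genes of translation and RNA binding included EIF5A and G3BP2. EIF5A, a translation factor that carries the amino acid hypusine, had a leading 1275-base isoform at 31.1 FPKM in castrated and 11.2 FPKM in intact backfat. Its 1284-base isoform was at 3.06 and 0.287 FPKM, and its 1225-base isoform was at 0.910 and 6.0 FPKM, 6.59-fold lower. G3BP2, an RNA-binding protein of stress granules, likewise had a leading 4530-base isoform at 25.1 against 9.64 FPKM and a lower 4471-base isoform at 0.446 against 2.70 FPKM. In both genes the leading isoform stayed the same, and its share went from 64.1% in the intact to 88.7% in the castrated group for EIF5A and from 78.1% to 98.3% for G3BP2.

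UBE3B, a ubiquitin ligase, had raised isoforms of 5424 and 5824 bases at 1.47 against 0.0282 FPKM and 0.902 against 0 FPKM, and lowered ones of 5734 and 5791 bases at 0.332 against 1.52 FPKM and 0 against 0.664 FPKM. MFSD8, a lysosomal membrane protein, had a leading 1885-base isoform at 13.5 against 5.18 FPKM, a 1694-base isoform at 1.30 against 0 FPKM and an 1833-base isoform at 0.756 against 3.45 FPKM.

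ZC3H11A, a zinc finger protein of mRNA export, had the most listed isoforms. Of its 5 isoforms 4 were raised, led by 4.15 against 0.754 FPKM for the 4804-base and 3.10 against 0 FPKM for the 5148-base isoform. The other raised isoforms, of 4642 and 4770 bases, were at 1.41 and 0.848 FPKM against 0, and the 5067-base isoform was at 0 against 0.821 FPKM. ARMCX2, an armadillo repeat gene of the X chromosome, showed the converse. Of its 4 isoforms 3 were lowered, at 0.409 against 3.51, 1.05 against 3.69 and 0 against 1.81 FPKM, and 1 was raised, at 1.80 against 0 FPKM.

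Further genes of the naming rule had values in the same range. LYSMD4, a LysM domain gene that the table lists by a LOC identifier, had a 2510-base isoform at 11.3 against 3.41 FPKM and a 2622-base isoform at 0.151 against 4.78 FPKM, 31.6-fold lower. YPEL1 had an 877-base isoform at 12.2 against 3.12 FPKM and a 725-base isoform at 0 against 2.42 FPKM. TMEM63A, a mechanically gated ion channel gene, had a 3070-base isoform at 3.0 against 0 FPKM and lowered ones of 2931 and 3013 bases at 0.974 against 3.42 FPKM and 0 against 2.09 FPKM. CSNK1E, a casein kinase of the circadian clock, had raised isoforms of 2769 and 1491 bases at 1.98 and 1.28 FPKM against 0, and a 1538-base isoform at 0 against 0.810 FPKM. WDR76, C12H17orf80, ZNF643 and EXD3 also met the rule, and the highest of their isoforms was that of ZNF643 in the intact group, at 5.46 FPKM.

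A full exchange, with all raised isoforms at 0 in the intact and all lowered isoforms at 0 in the castrated group, was listed for 20 genes, 15 of them with 2 isoforms. Besides CAMK2D, PIK3R3, TCF7L2, PHF17, TEN1, DMTN and CSNK1E these included PJA1, a ubiquitin ligase gene with 4.05 FPKM in the castrated group for its 3620-base isoform. At the other end, 33 genes had no isoform at 0. Among these were SP100, ASS1, SHC1, ABHD14B, FUBP1, CHRDL1, ADCY6, EPB41L2, RORA, EIF5A, G3BP2, FCGR2B and SCAP. Some of their values were still near 0, such as 0.00709 FPKM for RORA in the castrated and 0.0140 FPKM for FUBP1 in the intact group. Such values may be no better measured than a listed 0.

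By definition the raised isoforms of every member held a larger share in the castrated group, so shares and leading isoforms describe the size of changes that the choice of genes already used. The raised isoforms held a median of 94.3% of a gene's listed FPKM in the castrated group and 2.0% in the intact group. Counting isoforms above 0 in both groups alone left 39 genes, with medians of 88.6% and 19.5%. The isoform with the highest level differed between the groups in 88 of the 103 genes and was the same in 15. The difference in share was 90 percentage points or more in 28 genes and under 50 points in 20, with a lowest value of 20.1 points, for G3BP2. These shares cover listed isoforms, so isoforms that were not called do not enter them.

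**Figure D3:**
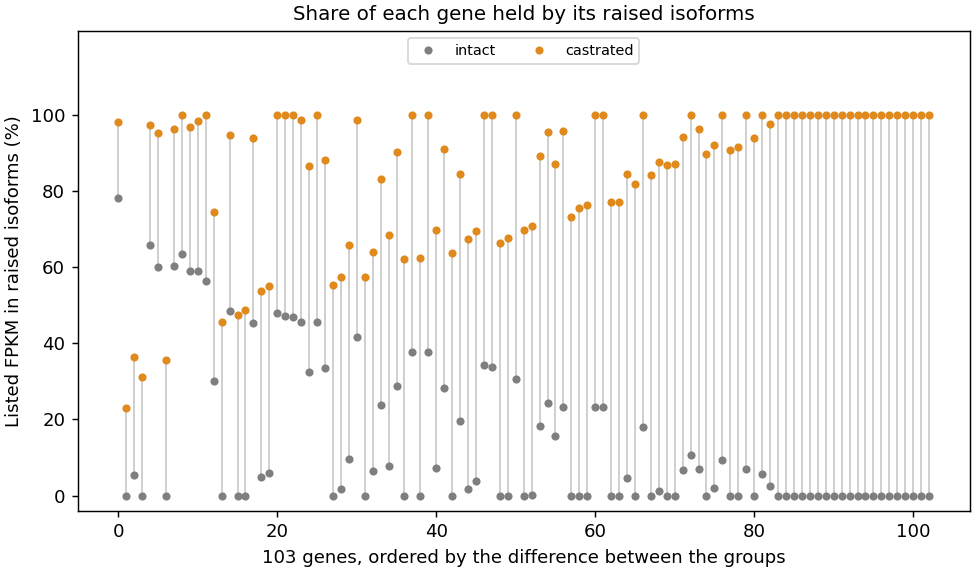
Percent of each gene's listed FPKM held by its raised isoforms in the intact (grey) and castrated (orange) group, for the 103 genes ordered by the difference, 1 value per group. The median lies at 2.0% in the intact and 94.3% in the castrated group, and the 20 genes at the right run from 0% to 100%.

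The choice of genes with isoforms on both sides makes the changes within a gene offset each other in its sum, so the sums are given as a description. The sum passed the size rule upwards in 9 genes, downwards in 9 and in neither direction in 85, where of all listed genes 41.0% passed upwards and 39.3% downwards, 80.2% in all, and nothing is read from that difference. It was numerically higher in 52 and lower in 51 genes, with a median log2 change of 0.01 and a lowest value of -1.67 for FCGR2B. In 55 genes it lay within 0.5 and the nearest to 0 were EXD3 at 0.01, PHF17 at -0.02, LDLRAD4 at -0.03, MBD1 at -0.03 and CDK20 at 0.04. After the centring the sums of 95 genes were on the lower side, 1 gene passed upwards and 37 downwards. With the highest isoform of each gene in place of the sum, 47 genes passed upwards and 45 downwards.

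The 182 genes with 2 or more listed isoforms in the same direction, 109 higher and 73 lower, are the nearest comparison. In each of them the sum passed the size rule, and the choice by direction sets the sums apart in the 2 sets of genes, so nothing is read from that contrast. Their highest isoform had a median of 24.1 FPKM, against 3.74 FPKM in the 103 genes, and 19.5% of their 415 isoforms had a 0 in 1 group, against 44.5%. The share of genes with 3 or more isoforms was 22.0%, against 24.3%. Over all 2266 listed genes the highest isoform had a median of 5.86 FPKM, and 20.7% of all 2645 listed isoforms had a 0. The differences in level, zeros and isoform number were not tested, because genes are not replicates and each group had 1 value.

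**Figure D4:**
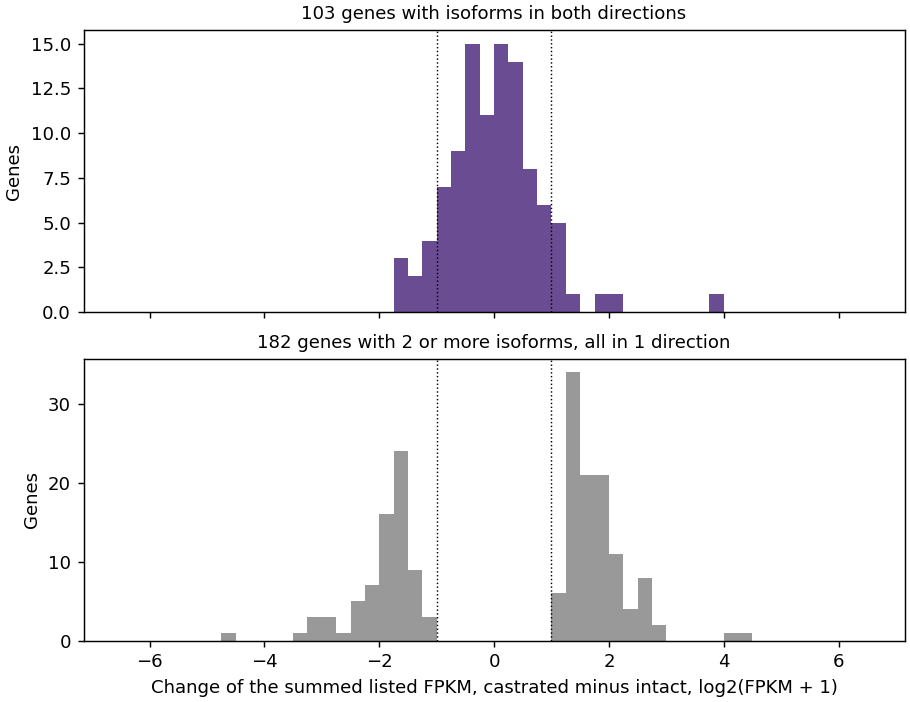
Number of genes by the log2(FPKM + 1) change of the summed listed isoforms, castrated minus intact, for the 103 genes with isoforms in both directions (top) and the 182 genes with isoforms in 1 direction (bottom). The top distribution centres on a median of 0.01 with 85 genes inside the dotted lines of the size rule, and none of the 182 genes lies inside them.

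Transcript length, which did not enter the choice of genes, was compared between the most raised and the most lowered isoform. The raised one was longer in 56 genes and shorter in 46, and the lengths were equal in TCF7L2. The lengths differed by a median of 81 bases. In 56 genes the difference was at most 100 bases and in 13 at most 10 bases, among them SHROOM1 with 2, MAPK8IP3 with 3 and SCAP, KLC4 and KDM5C with 4. How well reads can tell such transcripts apart was not tested. The difference exceeded 1000 bases in KIAA0753, PDIK1L, SEC24A, CSNK1E and MATR3, at 2906, 2365, 2222, 1231 and 1034 bases.

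Genes known to act on isoform choice were looked at from fixed lists, by the sum over listed isoforms. Of 56 splicing regulators 8 were listed, and none of them was among the 103 genes. The size rule was passed downwards by 7 and upwards by none, against 37.8% and 40.7% of all 1940 listed gene symbols, with a median log2 change of -1.67 against 0.54 over all listed symbols. MBNL1, a muscleblind splicing factor, was at 2.05 FPKM in castrated and 15.1 FPKM in intact backfat. SRSF5, a serine/arginine-rich splicing factor, was at 6.52 and 31.8 FPKM, and PTBP1, a repressor of exon inclusion, at 3.07 and 12.0 FPKM.

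The remaining lowered splicing regulators were less abundant. KHDRBS3 was at 2.01 against 7.35 FPKM, RBFOX2 at 0.571 against 3.04 FPKM, SRSF7 at 0 against 3.14 FPKM and the kinase CLK4, which phosphorylates such factors, at 0 against 2.15 FPKM. SRSF4 stayed below the rule, with 0.639 against 0 FPKM. Under a pseudocount of 5 FPKM 3 of the 8 passed downwards. After the centring the same 7 did, which was fixed in advance because the centring scales the castrated values down. These are 1 listed isoform per gene, except SRSF5 with 2, so an isoform that was not called could differ otherwise. Whether these genes bear on the isoforms above was not tested.

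Of 19 genes of transcript end processing 3 were listed, and PAPOLA, the main poly(A) polymerase, passed upwards at 3.27 against 1.05 FPKM. Of 16 genes of nonsense-mediated decay SMG5 alone was listed, at 34.3 against 11.9 FPKM. After the centring neither passed. For the lists that follow, the shares over all 1940 listed gene symbols were 40.7% upwards and 37.8% downwards. Among 62 genes of the actin cytoskeleton and adhesion 18 were listed, 9 higher and 7 lower past the rule, with EPB41L2 and FLNC as members. After the centring 2 passed upwards and 8 downwards. Among 43 genes of insulin signalling and glucose handling 14 were listed, 9 higher and 2 lower, with SHC1 as a member that passed in neither direction by its sum, and after the centring 1 was higher and 3 lower.

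Of 39 nuclear receptors and coregulators 11 were listed, 4 higher and 2 lower, with RORA and NCOA7 as members. Of 55 kinases and phosphatases of growth signalling 8 were listed, 2 higher and 5 lower, with CAMK2D as a member. After the centring the former had 1 higher and 5 lower, and the latter 0 higher and 5 lower. All 22 listed genes of the lipid and adipocyte list were higher, against 40.7% of all 1940 listed gene symbols, and 7 still passed after the centring. By the KEGG annotation in the authors' table, 33 of the 103 genes had a pathway, and the pathway with the most of them was adrenergic signalling in cardiomyocytes, with 5 of 33 (ADCY6, CACNA2D1, CAMK2D, PIK3R3 and PPP2R5D) against 24 of 783 listed genes with a pathway. KEGG insulin signalling held 3 of 33 against 28 of 783.

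The labelled tissue was checked by its markers. Of 17 adipocyte markers 13 were listed, at a summed 5275 FPKM in castrated and 1437 FPKM in intact backfat, with 11 higher and 2 lower. Over all 1940 listed gene symbols the shares were 40.7% higher and 37.8% lower. No member was on a marker list. After the centring the listed markers kept their direction. For lower markers this was fixed in advance, because the centring scales the castrated values down. Higher markers had little room to turn. No listed isoform had an absolute log2 fold change under 1.15 by the authors, and the centring shift was 1.26. Nothing is therefore read from the kept direction. After the centring 2 adipocyte, 1 erythroid, 2 macrophage and 0 T and NK lymphocyte markers passed upwards. EGFL7, the single listed endothelial marker of 8, was at 4.48 against 13.1 FPKM, and of 8 skin markers EVPL was higher and PPL lower, at a summed 5.07 against 26.2 FPKM. Markers without a called isoform are not in the table, so their levels are unknown.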

How the data were processed

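Total RNA of backfat was depleted of ribosomal RNA and sequenced on an Illumina instrument from strand-specific libraries, per the labels' protocols, which also name a TruSeq RNA kit. TopHat2, Cufflinks and the build Sscrofa10.2 appear in the submitters' processing notes, without a role or version. The authors deposited FPKM per isoform for each group, 1 value each, with a log2 fold change, p-values and q-values per isoform, per the file headers. Transcript length in bases is a further column. The depth is unknown, and no interval was computed.

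From these values log2(FPKM + 1) differences, isoform shares and sums per gene identifier were computed with Python 3.11.15 and pandas 2.3.3. With 1 value per group no test was made. The code of the rule and of the size rule was run on simulated data without zeros, with known calls from the same formula. This checks the code and does not show how well the rules suit the data. Symbols for LOC identifiers came from RefSeq (Sscrofa11.1), used for names only: 100 of 103 gene IDs matched.

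The genes and lists were chosen with earlier results of these data known. Named genes with a symbol were the 20 with the largest smaller-of-both change, the 10 with the highest isoform, the 5 largest and 5 smallest sum changes, members on a list, and genes with 3 or more isoforms, 48 in all, of which 1 is not reported here. SCAP, GBF1, PCGF5, PHKG1, PJA1 and the genes named only for transcript length or KEGG were added after their values were seen. A further part, on circular RNAs, could not be applied, because that table names no host gene. The alternatives were other pseudocounts, level minimums, centring and groupings. No gene sequence was used here.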

Additional observations from a re-analysis of the deposited data

How the results depend on the processing

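The number of genes with isoforms in both directions, 103, stayed at 103 when lines were grouped by gene name or kept to identifiers with a single name, was 73 for isoforms that reached 1 FPKM, and was 111 after centring. It was 33 with q under 0.01 in the authors' deposited table, 39 with isoforms above 0 in both groups and 47 with a length difference over 100 bases. The last choice, the centred count and the count of genes with no isoform at 0 were added after seeing the data. Past the size rule in both directions there were 65 genes, 2 with a pseudocount of 5, 18 after centring, 10 with at least 5 FPKM and 25 with no isoform listed at 0. With a pseudocount of 0.1 it was 73. With a pseudocount of 5 the isoforms that passed were 8 upwards and 9 downwards, and after centring 20 and 96. By the sum, the genes that passed upwards were 9, against 3 with a pseudocount of 5, 1 after centring and 47 by the highest isoform. Those that passed downwards were 9, against 17 with a pseudocount of 0.1, 2 with a pseudocount of 5, 37 after centring and 45 by the highest isoform, which left 11 in neither direction. A pseudocount of 5 shrinks low values by construction, and centring scales the castrated values down, by 1.26 on the log2 scale before the pseudocount is added. The sums were scaled by this same isoform median, which is larger than the median of summed genes, 0.66. Of the 48 named genes, the smaller of the opposite changes no longer passed in 37 with a pseudocount of 5 and in 23 after centring, and RORA, also no longer past the rule, turned to -0.030. No paired analysis was possible because each group has 1 sample. The unknown depth and the lack of replicates limit all values.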
